A study of Mus musculus with 55 samples.

Results

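The comparison described here is that of immature neurons at 7 days in vitro (7DIV) depolarized with KCl for 15 min against unstimulated (basal) neurons of the same age. Its members were chosen by condition and time alone, without any measured value: the 3 samples labelled 7DIV KCl 15 min and the 3 samples labelled 7DIV basal, 6 of the 55 samples of the series. The neurons were primary cultures of forebrain, that is, cortex with hippocampus, from CD1 mouse embryos of both sexes at embryonic day 16 to 17.5, with no genetic change in any group. KCl was added to the growth medium at 55 mM and left until harvest, and neither group was silenced beforehand. All 6 belong to the maturation experiment of 28 samples, which also holds 7DIV cultures after 180 min of KCl, 7DIV cultures treated for 15 min with 50 μM bicuculline, a GABA-A receptor blocker, and 2.5 mM 4-aminopyridine, a potassium channel blocker (4APBic), and cultures labelled 23DIV, called 21DIV in the study. The cultures are mixtures of neurons and glia, and the labels do not say which samples came from separate preparations. The p-values therefore measure the spread between these samples, which may be partly technical.

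Raised extracellular potassium depolarizes neurons directly, without synapses, and opens voltage-gated calcium channels. Calcium then activates kinases that reach the nucleus and phosphorylate CREB and other factors already bound to DNA, so that immediate early genes (IEGs) such as Fos are transcribed without new protein synthesis. The first wave of IEGs encodes mainly transcription factors of the AP-1, EGR and NR4A families, feedback inhibitors and a few synaptic proteins, and it is followed by a later wave of effector genes. The comparison asks which transcripts of an immature culture had already changed 15 min after depolarization.

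The 6 libraries held between 1659263 and 4473908 counts on genes, with basal replicate 3 the smallest. Any 2 of them differed by more than sampling noise. Divided by its degrees of freedom, chi-square was 4.01 to 4.93 for pairs of the same group and 3.91 to 5.65 for pairs across the groups. No library was counted as a repeat of another. Whether reads were collapsed by molecular identifier is not known, so these values cannot tell separate cultures from technical repeats. On principal components of the 15 samples at 7DIV, PC1 ran from -7.20 to -3.56 over KCl 15 min samples and from -6.49 to -2.55 over basal samples, while it was 17.5 to 21.6 after 180 min of KCl. Basal replicate 3 stood apart on PC2, with a score of 29.4 against -12.5 to 5.96 in the other samples, and KCl 15 min replicate 3 had the highest score on PC3, 21.6. The number of DEG given next was the same with each of these libraries left out.

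No gene passed the threshold after 15 min of KCl at 7DIV. The quasi-likelihood test of edgeR was run over 11742 genes, and its p-values were adjusted by Benjamini-Hochberg. A differentially expressed gene (DEG) needed at least 1.5-fold between the groups together with an adjusted p below 0.05. By this rule 0 genes (0%) were DEG, and the lowest adjusted p was 0.240. At an unadjusted p under 0.05 there were 659 genes (5.61%), of which 333 (2.84%) were higher and 326 (2.78%) lower with KCl. All 3 KCl samples lay above all 3 basal samples for 678 genes (5.77%) and below them for 682 (5.81%). The median change was 0.188 in absolute log2 fold change, with a median standard error of 0.268. Other tests on the same counts called few genes: the likelihood ratio test of edgeR called 5, DESeq2 called 3, and edgeR's quasi-likelihood test without the filter on low counts called 27. The precision differed with expression. Among 4852 genes with an average log2 CPM (counts scaled to a common library size) of at least 5, the 95% interval of the fold change lay within 2-fold in both directions for 4705 (97.0%), while for weakly expressed genes a change of 2-fold was often not detectable at this depth. These are bulk samples, so a transcript made by fewer cells and one made at a lower level per cell cannot be told apart.

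**Figure D1:**
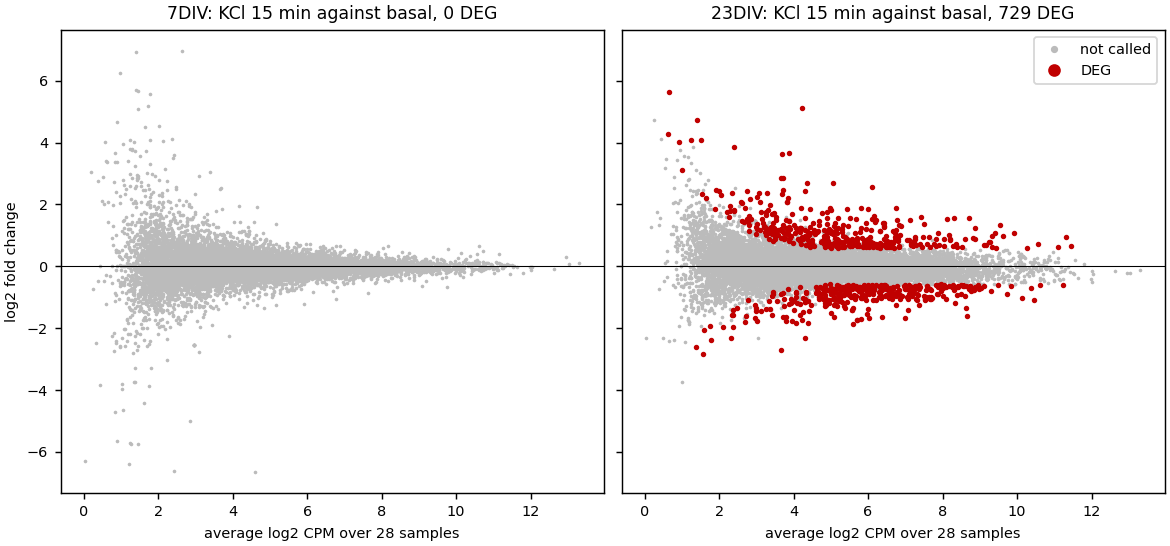
Each point is 1 of 11742 genes, with its average log2 CPM over the 28 samples on the x axis and the log2 fold change of KCl 15 min against basal on the y axis, at 7DIV (left) and 23DIV (right). DEG are red: there are 0 at 7DIV and 729 at 23DIV. The libraries compared held 1659263 to 4473908 counts on genes at 7DIV and 4029434 to 14008626 at 23DIV.

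The AP-1 family, whose FOS and JUN proteins pair to form the best known early transcription factor of active neurons, had 0 of 6 tested members called (0% of all genes were called). Fos (chromosome 12, 85473890 to 85477274 on GRCm38), the usual marker of recent activity, was measured at 64.4, 71.2 and 77.2 CPM in the basal samples and at 57.7, 71.3 and 49.4 CPM in the KCl samples. The groups overlapped, and the log2 fold change was -0.24 with a 95% interval from -0.82 to 0.33 (adjusted p = 0.958 by edgeR's quasi-likelihood test). A rise of Fos by more than 1.26-fold was outside that interval. Junb (chromosome 8, 84976909 to 84978748), which encodes a partner of FOS, had 42.2, 31.9 and 27.6 CPM in basal and 29.7, 30.4 and 36.7 CPM in KCl samples. Its values also overlapped, with a log2 fold change of -0.07 (95% interval -0.56 to 0.42). Jun and Fosl2, named after their values were seen, had log2 fold changes of -0.23 (-0.72 to 0.25) and -0.25 (-0.89 to 0.40).

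Fosb (chromosome 7, 19302696 to 19310118), a further FOS family member, had the lowest unadjusted p of the fixed early genes. It was measured at 175, 57.7 and 46.9 CPM in basal samples 2, 3 and 4 and at 47.3, 50.0 and 34.1 CPM in the KCl samples. Only basal replicate 2 was clearly high. Basal replicate 3 lay slightly above the KCl samples, and basal replicate 4 lay within their range. The log2 fold change was -1.05 (95% interval -1.79 to -0.32), with an unadjusted p of 0.00645 and an adjusted p of 0.672 by edgeR's quasi-likelihood test. Without basal replicate 2 the log2 fold change was -0.21. Fosb was among the 27 genes called as changed when the filter on low counts was dropped (adjusted p = 4.81e-05), in the direction of a lower level with KCl. Fosl1, named after its values were seen, showed the reverse situation, with 0 to 3.07 CPM in basal samples, 0 CPM in 1 KCl sample and 4.66 and 11.7 CPM in the other two, and a 95% interval from -0.83 to 4.56 that spans almost any change.

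EGR factors are zinc finger proteins induced through the serum response factor, and NAB proteins are corepressors that bind them. Of this group, 0 of 5 tested members were called. Egr1 was the fixed early gene with the largest positive value. It was measured at 30.8, 58.9 and 35.8 CPM in basal samples and 49.5, 52 and 60.1 CPM in KCl samples, so that basal replicate 3 lay within the KCl range. Its log2 fold change was 0.39 (95% interval -0.10 to 0.87, adjusted p = 0.914 by edgeR's quasi-likelihood test). Egr3 and Egr4 had negative log2 fold changes of -0.56 (-1.40 to 0.29) and -0.57 (-1.48 to 0.34). Egr2 is not analysed here.

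Npas4 (chromosome 19, 4984353 to 5003439) encodes a transcription factor that is induced by calcium entry in neurons and organizes inhibitory synapses. It was clearly expressed without stimulation, at 287, 473 and 443 CPM in the basal samples, and stood at 363, 413 and 411 CPM after KCl. The KCl values all lay inside the basal range, and the log2 fold change was -0.02 (95% interval -0.63 to 0.59). Of the NR4A orphan nuclear receptors, which act without a known hormone, 2 are among the fixed early genes, and 0 were called. Nr4a1 had 38.8, 59.5 and 50.7 CPM in basal and 40.5, 45.3 and 47.9 CPM in KCl samples, and Nr4a3 had 578, 473 and 515 CPM in basal and 436, 568 and 579 CPM in KCl samples. Their log2 fold changes were -0.16 (-0.73 to 0.42) and 0.01 (-0.39 to 0.41).

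The remaining fixed early transcription factors gave wider intervals. Atf3, a stress and activity induced factor, was near 10 CPM or below in every sample, and its interval ran from -1.89 to 1.25 on the log2 scale. Klf4 had 1.42, 3.68 and 2.71 CPM in basal and 3.81, 0.222 and 1.53 CPM in KCl samples, with a log2 fold change of -0.49 (-1.92 to 0.94) that moved to -1.93 without KCl replicate 1. Neither set of values separated the groups. Over the list of other early transcription factors, 0 of 28 tested members were called, and the median log2 fold change was -0.23 beside 0.00 over all genes tested.

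**Figure D2:**
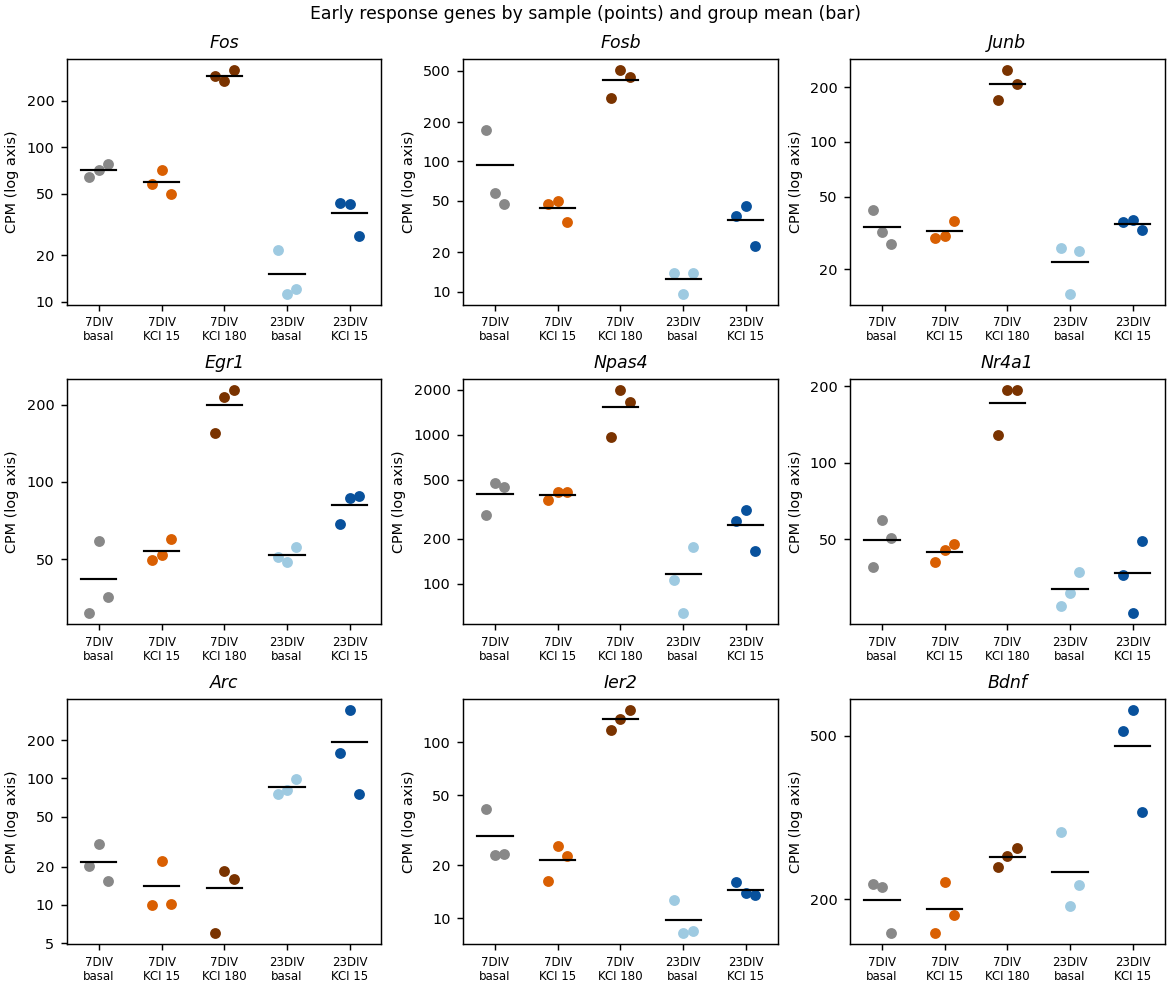
CPM (y axis, log scale) of 9 early genes in each sample (points), with the mean of each group as a bar, for the basal, KCl 15 min and KCl 180 min groups at 7DIV and the basal and KCl 15 min groups at 23DIV, 3 samples each. The 7DIV KCl 15 min points overlap with the basal points in all 9 panels, whereas Fos, Fosb, Junb, Egr1, Npas4, Nr4a1 and Ier2 are higher in every sample at 180 min than in any sample at 15 min.

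Among the feedback inhibitors and mRNA decay factors, which end the early response, 0 of 29 tested members were called. Btg2, an antiproliferative protein that promotes mRNA deadenylation, was the only one of the 17 fixed early genes tested whose groups did not overlap, and it was lower with KCl, at 20.4, 28.2 and 34.1 CPM in basal and 16.6, 17.5 and 14.8 CPM in KCl samples. The difference did not pass (log2 fold change -0.76, 95% interval -1.69 to 0.16, adjusted p = 0.909 by edgeR's quasi-likelihood test), and 5.81% of all genes had KCl samples below all basal samples. Dusp1, a phosphatase of MAP kinases, had 32.7, 54.6 and 57.7 CPM in basal and 48.7, 34 and 32.6 CPM in KCl samples, with a log2 fold change of -0.33 (-0.95 to 0.29). Ier2, a small nuclear early response protein, had 41.7, 22.7 and 23.3 CPM in basal and 16.3, 25.8 and 22.4 CPM in KCl samples. Its log2 fold change of -0.43 (-1.0 to 0.13) moved to -0.09 without basal replicate 2, the sample that was also high for Fosb.

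The synaptic and secreted effectors, which carry the response to the synapse, gave 0 calls among 26 tested members. Arc (chromosome 15, 74669081 to 74672570), which drives removal of AMPA receptors from synapses, had 20.4, 30.1 and 15.4 CPM in basal and 10.1, 22.2 and 10.2 CPM in KCl samples, with overlapping groups and a log2 fold change of -0.50 (-1.40 to 0.40). Bdnf (chromosome 2, 109674700 to 109727043), a secreted neurotrophin, had 217, 214 and 166 CPM in basal and 165, 220 and 183 CPM in KCl samples. Its log2 fold change was -0.06 (-0.54 to 0.41). Homer1, whose short form uncouples glutamate receptors from their scaffold, had a log2 fold change of -0.21 (-0.59 to 0.16), over the one transcript that represents the gene here, so the forms were not separated. Of the 26 members, 5 had all KCl samples below all basal samples: Nptx2, Scg2, Gem, Rem2 and Cort, named after their values were seen, while 5.81% of all genes did so. Of these, Scg2, a granin of dense core vesicles, went from 509, 442 and 495 CPM to 375, 387 and 361 CPM, with a log2 fold change of -0.36 (-0.70 to -0.03, adjusted p = 0.853 by edgeR's quasi-likelihood test).

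**Figure D3:**
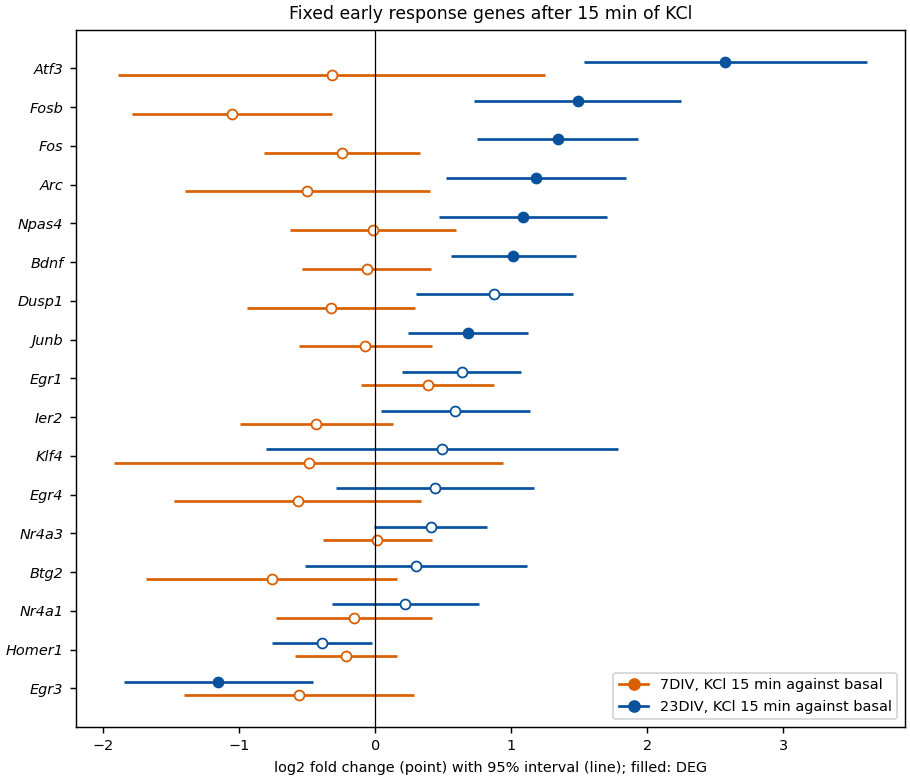
Log2 fold change of KCl 15 min against basal (points) with its 95% interval (lines) for the 17 fixed early genes tested, at 7DIV (orange) and 23DIV (blue), with filled points for DEG. At 7DIV 0 points are filled and 15 of 17 lie below 0, while 5795 of all 11742 genes had a positive value. At 23DIV 8 are filled, 7 of them above 0, beside 3.2% of all genes called higher and 3.01% called lower.

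Across the 5 early response lists together, 94 of 105 listed genes were tested and 0 were called at 7DIV. Their log2 fold changes were positive for 24 and negative for 70, with a median of -0.20, while over all 11742 genes 5795 were positive and the median was 0.00. Of the 94 genes, 6 had an unadjusted p under 0.05, a share of 6.38% beside 5.61% over all genes. All KCl samples lay above all basal samples for 3 of them (Crem, Mef2c and Plk2, named after their values were seen) and below for 8, while 5.77% and 5.81% of all genes did so. For 79 of the 94 the upper end of the 95% interval stayed below a 2-fold rise. 4APBic for 15 min, against the same 3 basal samples, also had mostly negative values on these lists. There 33 of 94 were positive, beside 5832 of 11742 over all genes, and the median was -0.12. The direct difference of KCl and 4APBic had a median of -0.05. The members share libraries and were not tested as a set.

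Genes that sense the stimulus or restore the ion balance were also described by list. Of 38 tested genes for calcium entry and signalling to the nucleus, 0 were called, and their median log2 fold change was 0.06. Creb1, which encodes the calcium-responsive factor CREB, had a log2 fold change of -0.17 (-0.56 to 0.23). Of 20 ion pump and cation-chloride cotransporter genes, 0 were called, with a median of 0.16. Within this list Slc12a5, which encodes the neuronal chloride extruder KCC2, had the lowest adjusted p. It was measured at 40.3, 28.2 and 40.9 CPM in basal and 55.8, 45.3 and 70.3 CPM in KCl samples, with groups that did not overlap and a log2 fold change of 0.61 (0.24 to 0.97, adjusted p = 0.548 by edgeR's quasi-likelihood test). Slc12a2, which encodes the chloride importer NKCC1, had a log2 fold change of -0.15 (-0.48 to 0.18). Heat shock chaperones had 0 of 11 called, genes of immature neurons such as Dcx and Gap43 0 of 19, and cytosolic ribosomal proteins 0 of 16, with medians of -0.08, -0.09 and -0.08. Dcx, a microtubule protein of migrating neurons, had 321, 302 and 346 CPM in basal and 289, 324 and 303 CPM in KCl samples, with a log2 fold change of -0.08 (-0.30 to 0.14).

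**Figure D4:**
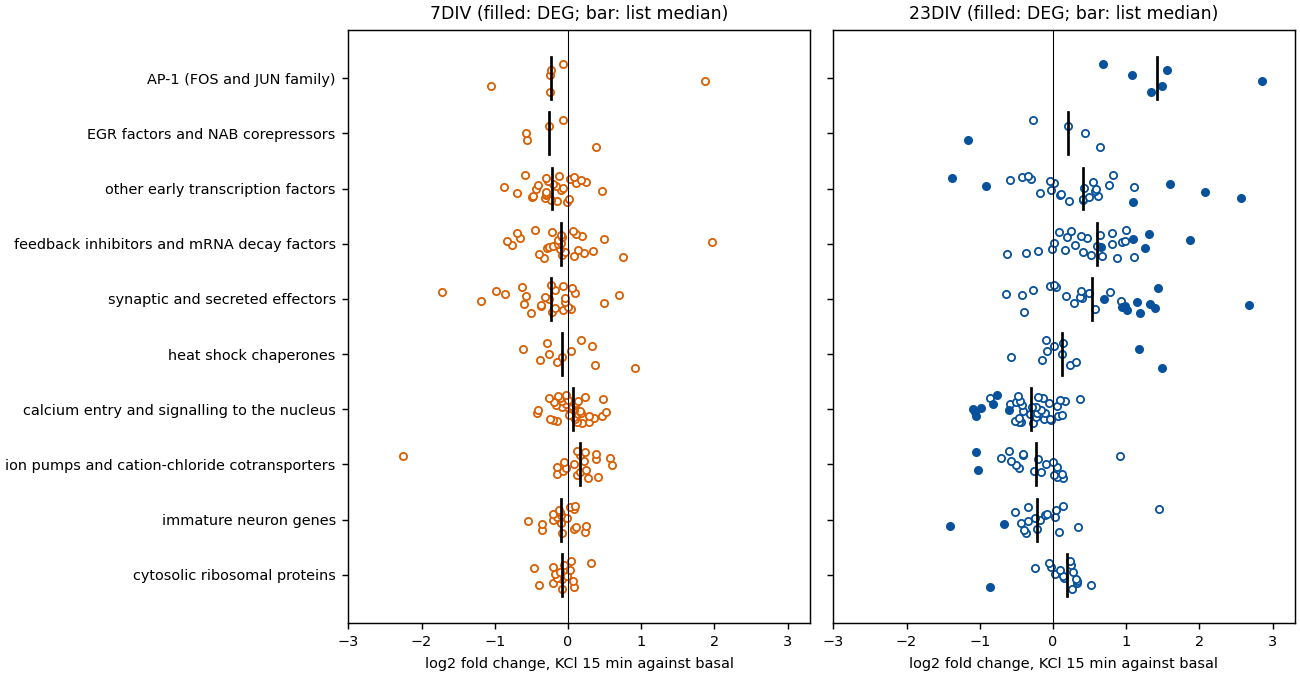
Log2 fold change of KCl 15 min against basal (x axis) of the tested members (points) of 10 gene lists at 7DIV (left) and 23DIV (right), with the median of each list as a bar and DEG filled. At 7DIV 0 points are filled, and at 23DIV 6 of 6 tested AP-1 genes are, beside 6.21% of all genes. Of these AP-1 genes, only Fos and Jun were called in all 6 fits that left out 1 library each.

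Since fewer than 10 DEG existed, the 10 genes of lowest p are described, with adjusted p between 0.240 and 0.351 by edgeR's quasi-likelihood test. None of them is a member of the early response lists. Syt13, an atypical synaptotagmin gene, was measured at 3.32, 3.68 and 9.48 CPM in basal and 19.9, 13.5 and 13.8 CPM in KCl samples, which is 1.36 on the log2 scale (standard error 0.32). Dennd5b, which encodes an activator of Rab GTPases, was the most evenly separated, at 55.9, 58.9 and 69.4 CPM in basal and 33.7, 38.6 and 36.2 CPM in KCl samples, which is -0.77 on the log2 scale (standard error 0.18). The groups did not overlap for either gene. Map3k1, a kinase upstream of JNK, had 20.4, 8.59 and 15.7 CPM in basal and 2.45, 3.55 and 7.13 CPM in KCl samples. Pomt2, a protein O-mannosyltransferase gene, had 15.6, 19.0 and 14.4 CPM in basal and 4.90, 4.00 and 7.13 CPM in KCl samples. Both had lower KCl samples without overlap, with log2 fold changes of -1.89 and -1.65. Parp3, a poly(ADP-ribose) polymerase gene, had 0 counts in every basal library and 13, 20 and 6 counts in the KCl libraries, which against a floor of 3 counts over the group is at least 9.53-fold higher. Bola3, Dusp15, Unc80 and Fras1 had higher and Fam184a lower KCl values, with log2 fold changes of 1.51, 1.13, 1.79, 1.38 and -1.19.

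Of these 10, Parp3, Pomt2 and Map3k1 were the 3 genes called by DESeq2 (adjusted p = 0.0372 for each), and the likelihood ratio test of edgeR called them together with Syt13 and Cldn11. Cldn11, a tight junction gene of myelin that was named after its values were seen, had 0 counts in all KCl libraries and 1, 1 and 22 counts in the basal libraries, so 1 library held nearly all its counts. Over the whole group that is at least 10.9-fold lower, a bound that rests on basal replicate 4.

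**Figure D5:**
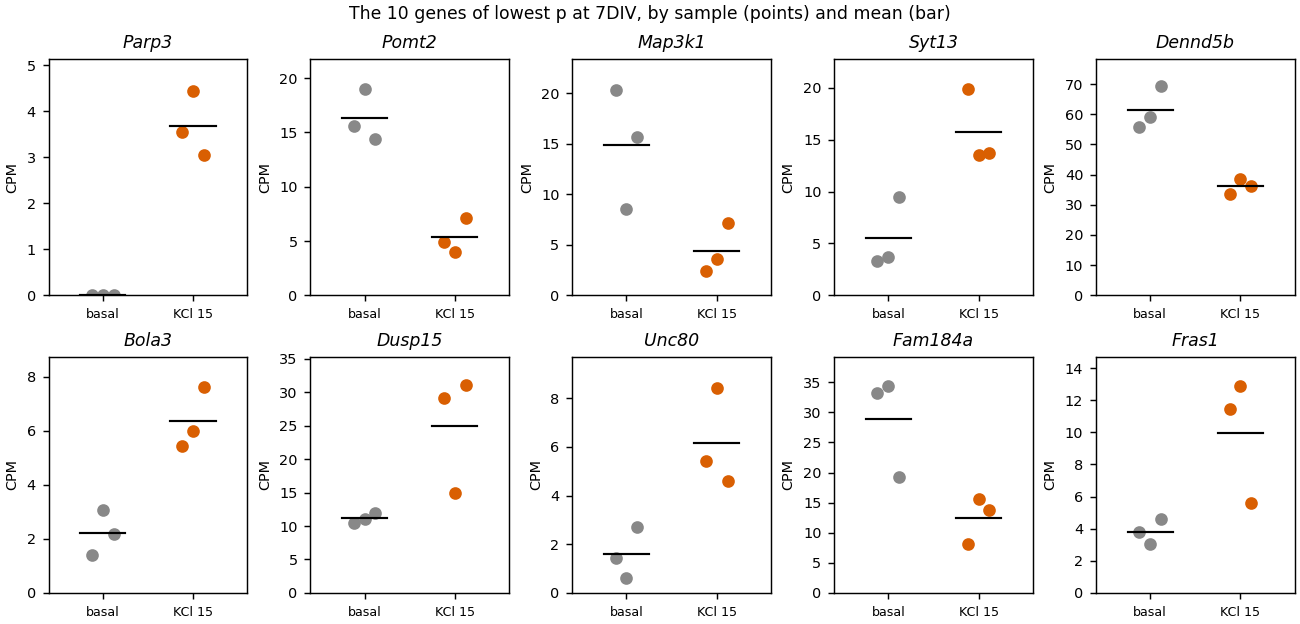
CPM (y axis, from 0) of the 10 genes of lowest p in the 3 basal and 3 KCl 15 min samples at 7DIV (points), with the group mean as a bar. The groups do not overlap in any panel, which choosing by p in these same samples favours, and 0 of the 10 passed the threshold. Of all genes, 5.77% had KCl samples above and 5.81% below all basal samples.

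Cultures of the same age did differ at the later time. KCl 180 min and KCl 15 min samples at 7DIV were compared directly, without the basal samples, and 318 genes differed (2.71%), 181 higher (1.54%) and 137 lower (1.17%) at 180 min. Of the 17 fixed early genes tested, 11 were higher at 180 min. Fos stood at 288, 268 and 314 CPM at 180 min, above every sample at 15 min, a log2 difference of 2.27 (standard error 0.28, adjusted p = 5.03e-06 by edgeR's quasi-likelihood test). Npas4 reached 969, 1997 and 1656 CPM, a difference of 1.96 (standard error 0.30), and Junb, Ier2, Egr1 and Nr4a1 differed by 2.71, 2.66, 1.90 and 1.95. Klf4 and Fosb, with Cldn11, had the largest positive differences among called genes of sufficient expression, 4.49 and 3.24, and Cldn11 had 0 counts at 15 min and 49 at 180 min, 34 of them in 1 library. The value of Klf4 was 5.93 without KCl 15 min replicate 1. Hes5, a Notch target of progenitors, Nefh, a heavy neurofilament gene, and Zfp128 had the largest negative ones, -2.74, -2.35 and -2.19, of which Hes5 was called in 5, Nefh in 6 and Zfp128 in 2 of 6 fits that left out 1 library each. Arc, Bdnf, Homer1, Egr3, Dusp1 and Atf3 were not called, with differences of -0.12 (95% interval -1.06 to 0.82), 0.42 (-0.05 to 0.89), -0.06 (-0.43 to 0.32), 0.23 (-0.62 to 1.08), 0.99 (0.38 to 1.59) and 1.40 (0.01 to 2.80). By list, 4 of 6 AP-1 genes and 11 of 28 other early transcription factors were higher at 180 min and 0 lower. Leaving out a single library gave between 158 genes, without KCl 15 min replicate 1, and 291. Fos, Fosb, Junb, Egr1, Egr4, Npas4, Nr4a1, Ier2 and Klf4 were called in all 6 of these fits, and Nr4a3 and Btg2 in 1.

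At 23DIV, 15 min of the same KCl stimulus gave 729 DEG (6.21%), 376 higher (3.2%) and 353 lower (3.01%), in the same fit. The 6 libraries compared there held between 4029434 and 14008626 counts on genes, against 1659263 to 4473908 at 7DIV, so depth also differed between the stages. Whether the response itself differed between the stages was tested by the interaction, and 236 genes (2.01%) had a different fold change, 101 more positive (0.86%) and 135 more negative (1.15%) at 23DIV. In the AP-1 family 6 of 6 tested genes were DEG at 23DIV, and the interaction was called for Fos, Fosb and Jun. With each of the 6 libraries at 23DIV left out in turn, Fos and Jun were DEG at 23DIV in all 6 fits, Fosb in 4, Fosl1 and Fosl2 in 2 and Junb in 1. Fos rose from 21.6, 11.3 and 12.1 CPM to 43.2, 42.9 and 26.5 CPM at 23DIV. This log2 fold change, 1.34 (standard error 0.29), exceeded the value at 7DIV by 1.58 (standard error 0.40, adjusted p = 0.0334 by edgeR's quasi-likelihood test). The basal level of Fos was lower at 23DIV than at 7DIV in every sample, by 2.26 on the log2 scale (adjusted p = 5.24e-07 by edgeR's quasi-likelihood test), and the stimulated samples at 23DIV stayed below all samples at 7DIV. Fosb and Npas4 had the same order of basal levels, lower at 23DIV by 2.87 and 1.79 on the log2 scale. Jun, whose basal levels overlapped between the stages, rose from 223, 159 and 196 CPM to 410, 841 and 449 CPM at 23DIV, with an interaction of 1.79 (standard error 0.33, adjusted p = 0.00418 by edgeR's quasi-likelihood test).

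The difference between the stages was not shown for every gene that was a DEG at 23DIV and not at 7DIV. Npas4, Arc, Bdnf, Atf3 and Junb were DEG at 23DIV, with log2 fold changes of 1.09, 1.18, 1.02, 2.57 and 0.68, but their interactions did not pass the adjusted threshold (adjusted p = 0.184, 0.109, 0.0768, 0.104 and 0.242 by edgeR's quasi-likelihood test). The calls of Npas4, Arc and Junb were lost in most of the fits that left out 1 library at 23DIV. Of 6 fits that left out 1 library each, Atf3 was called in 6 and Bdnf in 5. Npas4 and Arc were called in 2 and Junb in 1, and the value of Arc was 0.47 without KCl 15 min replicate 2. Egr3 went the other way at 23DIV, with a log2 fold change of -1.15 that was called in 1 of 6 fits, and Egr1 was not called at either stage. Other list members with a called interaction, named after their values were seen, were the transcription factors Maff and Nfil3, the feedback inhibitors Rgs2, Rgs4 and Gadd45g, and the secreted or synaptic proteins Nptx2, Vgf and Scg2, all more positive at 23DIV. Of 12 fits that left out 1 library each, Rgs2 was called in 11, Nfil3 and Vgf in 6, Gadd45g in 5, Maff in 4, Rgs4 in 3 and Nptx2 in 2. Over the 5 early lists, 11 of 94 tested genes had a called interaction, all more positive at 23DIV, beside 236 of 11742 over all genes.

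Some members of the other lists differed in the opposite direction. Of 38 calcium signalling genes 4 had a called interaction, and of 20 pump and cotransporter genes 3, all more negative at 23DIV, beside 1.15% of all genes. They included Cacnb3, Camk4, Camkk2 and Ppp3ca of the first list and Atp2b2 and Slc12a5 of the second, with values between -1.34 and -0.74. Of the 12 fits that left out 1 library each, Camk4 was called in 7, Camkk2 in 6 and Ppp3ca in 3. Slc12a5 had a positive value at 7DIV, 0.61, and a negative one at 23DIV, -0.51, which passed the adjusted p (0.0392 by edgeR's quasi-likelihood test) but not 1.5-fold. At 23DIV the summed level of 7 excitatory neuron markers was also lower with KCl, at 1768 to 2324 CPM against 2326 to 4608 CPM in basal samples, and its part in these values was not tested. The largest positive interactions among called genes of sufficient expression were those of Nupr1, Ptx3 and Arhgdib, and the largest negative ones those of F730043M19Rik, Frzb and Wnt4. Nupr1 had 3 or fewer counts in each of the 6 libraries at 7DIV, and F730043M19Rik had 0 counts in 2 of the 3 basal libraries, so their fitted values depend on few reads. The number of interactions moved between 64 without 23DIV basal replicate 2 and 566 without 23DIV basal replicate 1. With single libraries of the 7DIV comparison left out it lay at 102, 149 and 144 without KCl 15 min replicates 1, 2 and 3 and at 125 without basal replicate 2. Fosb, Jun, Scg2, Cacnb3, Atp2b2, Slc12a5, Neurod1 and Arhgdib kept their call in all 12 fits that left out 1 library each. Fos was called in 3. Of the 10 genes of lowest p at 7DIV, Syt13 and Dennd5b also kept their call in all 12. The interaction uses the same 7DIV samples that picked these genes. Dennd5b, lower with KCl at 7DIV, was higher at 23DIV, a DEG there in 5 of 6 fits.

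In the stimuli experiment, whose samples at 21DIV share nothing with the 7DIV comparison, 869 of 12023 genes tested (7.23%) were DEG after 15 min of KCl, 545 higher (4.53%) and 324 lower (2.69%), over 2 KCl and 3 basal samples. Arc rose from 25.5, 35.7 and 32.2 CPM to 325 and 400 CPM, and Npas4 from 81.4, 67.4 and 58 CPM to 205 and 208 CPM. Their log2 fold changes were 3.55 and 1.57, against -0.50 and -0.02 at 7DIV. Some cell type markers were also higher with KCl in these samples. DEG were 4 of 8 astrocyte markers, 4 of 8 tested markers of the oligodendrocyte lineage and 3 of 7 progenitor markers. All were higher, and the list medians were 0.63, 0.62 and 0.28. Of neuron markers 2 of 9 and of excitatory neuron markers 2 of 7 were DEG, also higher, with medians of 0.32 and 0.31. Of 6 tested inhibitory neuron markers 0 were DEG. The part of all these markers in the other values was not tested. These tables were normalized separately, and the difference between the experiments was not tested.

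The other stimulus gave the same count at this age and time. Against the shared basal samples, 4APBic for 15 min gave 0 DEG by edgeR's quasi-likelihood test, with 793 genes (6.75%) at an unadjusted p under 0.05. KCl and 4APBic at 15 min were also compared directly, and 0 of 11742 genes differed by that test (lowest adjusted p = 0.886), with 535 genes (4.56%) at an unadjusted p under 0.05. DESeq2 called 2, Dhx15 and Slc23a1, and 17 were called without the filter on low counts. The intervals of the direct difference were -0.81 to 0.34 for Fos, -0.84 to 0.38 for Npas4, -0.39 to 0.56 for Egr1 and -1.58 to 0.16 for Arc on the log2 scale, and differences within these ranges were not detectable with 3 samples a group. Among genes with an average log2 CPM of at least 3, those of largest difference were Prok2, F730043M19Rik and Mgarp, higher with KCl, and Srgn, Cldn11 and Fam107a, lower, with adjusted p = 0.995 for each by edgeR's quasi-likelihood test. Prok2 was measured at 7.62, 15.1 and 15.8 CPM with KCl and 2.78, 1.67 and 1.31 CPM with 4APBic, and F730043M19Rik at 35, 66 and 77 counts with KCl and 22, 9 and 6 counts with 4APBic. Both were also uneven among the basal libraries, with 38 of 39 counts of Prok2 and all 20 of F730043M19Rik in basal replicate 4. The other 4 had 0 counts in 1 or more libraries and at most 22 counts over the 6.

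The labelled cell type was checked against marker genes. The summed level of 9 neuron markers lay between 4473 and 4649 CPM in basal and between 4338 and 4582 CPM in KCl samples. Of the neuron markers 0 of 9 were called, and of 7 excitatory and 7 inhibitory neuron markers 0 were called. The 8 astrocyte markers summed to 506, 572 and 764 CPM in basal samples in order of size and to 842, 861 and 927 CPM in KCl samples, without overlap, while 0 of the 8 were called. The sums were 727, 808 and 939 CPM after 15 min of 4APBic and 654, 799 and 952 CPM after 180 min of KCl at 7DIV. Of the 8, 2 had all KCl 15 min samples above all basal samples, Gfap and Aldoc, beside 5.77% of all genes. Aldoc, an enzyme of glycolysis and itself part of this sum, had 343, 302 and 438 CPM in basal and 618, 515 and 566 CPM in KCl samples. Its log2 fold change was 0.65 (0.12 to 1.17, adjusted p = 0.778 by edgeR's quasi-likelihood test). It was one of the 27 genes called without the filter on low counts. The part of the astrocyte level in the other values was not tested. Microglia markers summed to at most 17.8 CPM in these 6 samples, with C1qa at 0 counts, with Tmem119 not analysed here. Vascular and fibroblast markers summed to 9.20 to 9.75 CPM in basal and 12.2 to 15.1 CPM in KCl samples, with Lum at 0 counts. Markers of the oligodendrocyte lineage summed to 465 to 730 CPM and 457 to 647 CPM, and those of progenitors to 317 to 370 CPM and 343 to 403 CPM, with 0 called in each list.

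With 0 DEG, gene span and exon number of called genes were not computed. Promoters of the early lists were described by motif, in a window of 250 bases before to 50 bases after each RefSeq start site on GRCm38.p6 and on both strands. The full cAMP response element TGACGTCA was found for 8 of 71 tested early genes with a promoter (11.3%), among them Btg2 and Dusp1, and for 2.03% of all 27025 genes. The TATA motif TATAAA was found for 23.9% and 15.7%, the AP-1 motif TGANTCA for 8.45% and 8.97%, and the CArG box, the site of the serum response factor, for 2.82% and 1.81%. The 2 sets are not alike: the early genes had passed the expression filter, while the 27025 are all genes with a promoter, tested or not. A gene with more than 1 promoter, such as Bdnf, counted if any of them matched. A match in this window is a description of sequence only.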

How the data were processed

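Neurons of the maturation experiment (28 samples) and the stimuli experiment (27 samples) were compared. Per the study's methods, CEL-Seq2 3′-end libraries were aligned to mm10 with STAR and counted with ESAT, the End Sequence Analysis Toolkit, and the submitters' processing notes also name edgeR. The deposited tables of the authors hold raw counts, whole numbers for each RefSeq transcript. Versions, and whether reads were collapsed by molecular identifier, are not given in the sources used here. Collapsing would lower counts most for abundant transcripts, and counts of 3′ ends cannot separate transcripts that share an end. Bounds against a floor of 3 counts cover counting error only.

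Transcripts were matched to symbols through RefSeq GRCm38.p6, the build of mm10: 78897 of 97700 (80.75%) matched, and the rest, with 18.53% of counts, were left out. The transcript with the most counts represented its gene, since transcripts that share a 3′ end repeat counts. Genes above 5 CPM in at least 2 of the 28 samples entered TMM normalization and the quasi-likelihood test of edgeR (edgeR 4.0.16, R 4.3.3) with 1 coefficient per condition and Benjamini-Hochberg adjustment. DEG had an adjusted p under 0.05 and at least a 1.5-fold change. Interactions had an adjusted p under 0.05. CPM values use TMM-scaled library sizes, and standard errors and intervals were back-calculated from the F statistic. Principal components used log2 CPM of the 500 most variable genes. The tests were tested on simulated data. Python 3.11.15, pandas 2.3.3, numpy 2.4.6 and matplotlib 3.10.9 made the tables and figures.

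The named genes were 18 fixed early genes, the 10 of lowest p where fewer than 10 DEG existed, and the 3 largest differences in each direction in each direct test (average log2 CPM of at least 3). The samples, the gene lists and the genes were chosen with earlier results of these data known. The alternatives were the likelihood ratio test, DESeq2 1.42.0, RLE factors, no filter, filterByExpr, thinned counts, the compared groups alone, the 15 samples at 7DIV alone, summed transcripts, the replicate block and leaving out each library. No adjusted p was computed over a list alone. The values of 1 list member are not reported here.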

Additional observations from a re-analysis of the deposited data

Results flagged for a closer look

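The response to 15 min of KCl was tested for a difference between 23DIV and 7DIV. Of 11742 genes tested, 236 (2.01%) differed by edgeR's interaction test with Benjamini-Hochberg adjustment, 101 more positive (0.86%) and 135 more negative (1.15%) at 23DIV. The values below are log2 fold changes at 23DIV minus those at 7DIV, for members of the gene lists that are reported here and for the genes of largest difference.

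Of 94 tested early response genes, 11 had a called difference, all more positive at 23DIV, and 83 did not, beside 0.86% of all genes more positive. The differences were 1.58 for Fos, 2.54 for Fosb, 1.79 for Jun, 2.38 for Maff and 1.81 for Nfil3 among transcription factors. They were 1.54 for Rgs2, 0.91 for Rgs4 and 2.02 for Gadd45g among feedback inhibitors, and 1.56 for Nptx2, 0.94 for Vgf and 1.34 for Scg2 among secreted and synaptic proteins. Of 12 fits that left out 1 library each, Nptx2 was called in 2, Fos and Rgs4 in 3, Maff in 4, Gadd45g in 5, Nfil3 and Vgf in 6, Rgs2 in 11, and Fosb, Jun and Scg2 in 12. Maff ranged from 1.80 without 7DIV basal replicate 2 to 3.55 without 23DIV basal replicate 1, Gadd45g was 1.34 without 23DIV KCl 15 min replicate 2, and Fosb was 1.70 without 7DIV basal replicate 2.

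Of 38 genes of calcium signalling 4, and of 20 genes of ion transport 3, had a called difference. All were more negative at 23DIV, beside 1.15% of all genes. The differences were -1.34 for Cacnb3, a calcium channel subunit, -1.16 for Camk4, -1.02 for Camkk2 and -0.74 for Ppp3ca, a calcineurin subunit. For Atp2b2, a calcium pump, and Slc12a5 they were -1.27 and -1.12. Neurod1, Elavl4, Tbr1 and Nrgn, listed as genes of neuronal identity or immaturity, had -1.66, -0.83, -0.89 and -1.47. Of the 12 fits, Camk4 was called in 7, Camkk2 in 6, Nrgn in 4 and Ppp3ca and Tbr1 in 3. Of 7 excitatory neuron markers, 5 were DEG lower with KCl at 23DIV and 1 higher, beside 3.01% and 3.2% of all genes. The part of these markers in the values above was not tested.

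Among called genes with an average log2 CPM of at least 3, the largest differences were 3.71 for Nupr1, 2.83 for Ptx3 and 2.82 for Arhgdib in the positive direction and -4.44 for F730043M19Rik, -2.64 for Frzb and -2.60 for Wnt4 in the negative direction. The value of F730043M19Rik, called in 8 of 12 fits, was -10.8 without 7DIV basal replicate 4, which held all its basal counts at that age. At 7DIV alone, these 6 had adjusted p between 0.402 and 0.964 by edgeR's quasi-likelihood test.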

How the results depend on the processing

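The count of 0 DEG for KCl 15 min at 7DIV stayed at 0 with RLE factors, filterByExpr, thinned counts, summed transcripts, the 6 samples alone, the 15 samples at 7DIV alone and every library left out. It was 5 with the likelihood ratio test, 3 with DESeq2 and 27 without the filter. KCl against 4APBic stayed at 0 except with DESeq2 (2) and without the filter (17). Interactions with stage (236) were 421 with the likelihood ratio test, 398 with DESeq2, 490 without the filter and 146 with summed transcripts, and 64 to 566 with 1 library left out (64 and 566 without 23DIV basal replicates 2 and 1, 86 without replicate 3, and 153 and 147 without 23DIV KCl 15 min replicates 1 and 2). The 318 genes between 180 and 15 min became 158 to 291 with 1 library left out (158, 202 and 195 without KCl 15 min replicates 1, 2 and 3, and 167 and 183 without KCl 180 min replicates 2 and 3). The 729 DEG at 23DIV became 478 with summed transcripts, 467 with the compared groups alone and 287 to 1100 with 1 library left out (287, 365 and 1100 without basal replicates 2, 3 and 1, and 447 without KCl replicate 1). The 869 DEG of the stimuli experiment became 486 with thinned counts, 575 with summed transcripts and 361 to 899 with 1 library left out (361 without KCl replicate 2, where the lone KCl sample is assumed to vary like the other groups). The causes were not tested. None of the named values reversed in sign where it was called.

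Basal and KCl samples at 7DIV share only the numbers 2 and 3, with correlations of deviations from the group means of -0.036 and 0.031, so the numbers were not taken to pair them. With the replicate number as a block, the counts were 0 for KCl 15 min at 7DIV, 133 interactions, 304 between the times, 0 against 4APBic, 712 at 23DIV and 567 in the stimuli experiment.

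Depth limits the weakly expressed genes most: 3 counts equal between 0.666 and 1.84 CPM in these 6 libraries, and 3 samples a group leave changes under 2-fold open for many of them.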
